A study of Mus musculus with 9 samples.

Results

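Interferon-stimulated genes are the genes that cells switch on when interferons reach their receptors. A list of 42 of them was examined in mouse liver: transcription factors, nucleic acid sensors, antiviral effectors, large GTPases and the antigen processing machinery. Members were taken by gene symbol. All 42 were found among the 33211 genes of the table, and all 42 were among the 14220 genes with enough counts to be tested. RNA-seq was performed on livers of wild-type male mice of the C57BL/6 strain (C57BL6/J in the study's methods), 8 weeks old at the start, that were given a high-fat diet (HFD) for 7 weeks. Once opened, the diet had been kept for 7 days either in a freezer at -20 °C (HFDfre, n = 5) or in a fridge at 4 °C (HFDfri, n = 4). Both groups ate the HFD, so the comparison is between its storage conditions. It asks how the storage of the diet bears on gene expression in the liver. Other differences that run along with the storage groups cannot be told apart from storage. The labels number the libraries without naming an animal for each, so the p-values measure the spread between these libraries, which may in part be technical.

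Interferons alpha and beta signal through a shared receptor and the kinases JAK1 and TYK2 to a complex that includes STAT2 and IRF9. This complex binds the interferon-stimulated response element (ISRE) near the start of its target genes. Interferon gamma acts through JAK1 and JAK2, and many of its target genes carry the gamma-activated site (GAS). In liver, hepatocytes and resident macrophages (Kupffer cells) both respond, and a low, steady expression of many of these genes is usual without infection.

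The ISRE can be read in the sequence before many of the genes examined. The stretches shown here are the 160 bases before the RefSeq start site (GRCm38.p6), written 5′ to 3′ on the strand of the gene. Capitals mark every match to the ISRE core, GAAA then any 2 bases then GAAA, on either strand. Matches on the opposite strand read TTTC, any 2 bases, TTTC, and overlapping matches run together. The first 6 genes shown were lower in HFDfri at an unadjusted p under 0.05, and the last 2 hold the same core and did not reach it. The 8 are a selection. Gbp7 and Ifit1 also hold the core in this stretch and were lower at that threshold. Ifitm2, Gbp2 and Irgm1 hold it there too and did not reach the threshold. The stretches of these other genes are not printed.
Gbp3, chr3:142559884-142560043, plus strand: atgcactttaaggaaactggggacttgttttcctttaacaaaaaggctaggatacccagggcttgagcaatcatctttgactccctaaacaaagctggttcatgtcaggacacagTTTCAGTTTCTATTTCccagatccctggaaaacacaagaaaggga
Igtp, chr11:58199396-58199555, plus strand: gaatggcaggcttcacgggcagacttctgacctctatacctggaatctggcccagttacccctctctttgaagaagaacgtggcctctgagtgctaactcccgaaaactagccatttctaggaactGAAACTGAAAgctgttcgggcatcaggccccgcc
Ifit3, chr19:34583369-34583528, plus strand: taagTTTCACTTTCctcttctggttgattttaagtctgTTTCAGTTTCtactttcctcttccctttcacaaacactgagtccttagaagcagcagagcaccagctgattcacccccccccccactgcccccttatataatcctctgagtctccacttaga
Isg15, chr4:156200819-156200978, minus strand: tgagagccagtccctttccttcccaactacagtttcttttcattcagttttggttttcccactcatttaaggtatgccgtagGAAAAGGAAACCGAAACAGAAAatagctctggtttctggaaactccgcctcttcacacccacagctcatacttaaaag
B2m, chr2:122147527-122147686, plus strand: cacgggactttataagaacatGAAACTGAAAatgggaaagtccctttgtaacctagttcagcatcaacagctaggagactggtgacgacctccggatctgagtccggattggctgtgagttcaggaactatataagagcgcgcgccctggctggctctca
Bst2, chr8:71537473-71537632, minus strand: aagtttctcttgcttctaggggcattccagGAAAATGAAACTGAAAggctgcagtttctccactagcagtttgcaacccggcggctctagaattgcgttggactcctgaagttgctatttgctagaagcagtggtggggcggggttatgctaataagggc
Oas1a, chr5:120907526-120907685, minus strand: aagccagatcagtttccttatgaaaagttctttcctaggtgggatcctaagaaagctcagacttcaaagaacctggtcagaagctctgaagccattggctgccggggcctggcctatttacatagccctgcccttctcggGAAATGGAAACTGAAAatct
Rsad2, chr12:26456453-26456612, minus strand: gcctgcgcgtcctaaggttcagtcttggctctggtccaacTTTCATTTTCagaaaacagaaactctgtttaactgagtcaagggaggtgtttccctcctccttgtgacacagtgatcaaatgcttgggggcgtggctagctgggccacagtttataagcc
In windows from 250 bases before to 50 bases after the start, the core was found in 17 of the 31 members with a RefSeq window, or 54.8%. It was found in 3.86% of the 10226 tested genes with a window and in 3.99% of all 27025 windows. The GAS core TTCNNNGAA, also searched on both strands, was found in 8 of the 31 members, or 25.8%, against 9.55% of all windows. The remaining 11 members had no window in the table and were not searched. The matches describe letters in the windows and not binding. Members with an ISRE core had a median log2 fold change (HFDfri minus HFDfre) of -0.27, and members with a window and no core had -0.25.

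Most of the 42 genes had lower levels in the livers of mice fed HFDfri. Of the 42 members, 35 had a log2 fold change (log2FC, HFDfri minus HFDfre) under 0, against 50.9% of all tested genes. The median was -0.28, against -0.0068 over all tested genes, and single members ran from -1.14 for Gbp3 to 0.24 for Parp14. Only Gbp3 and Ifi27 passed an adjusted p of 0.05 in the quasi-likelihood test of edgeR fitted on all genes. Both fell. Of all tested genes 1.05% passed, and 0.556% passed as lower. At an unadjusted p under 0.05, 17 members were lower, against 9.79% of all tested genes, and 1 member, Trim25, was higher, against 11.4%. The libraries of the groups did not overlap for 5 members, all lower in HFDfri (Gbp3, Igtp, Ifi27, Ifit3 and Ifi44), against 3.66% of all tested genes lower and 7.69% in either direction.

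**Figure D1:**
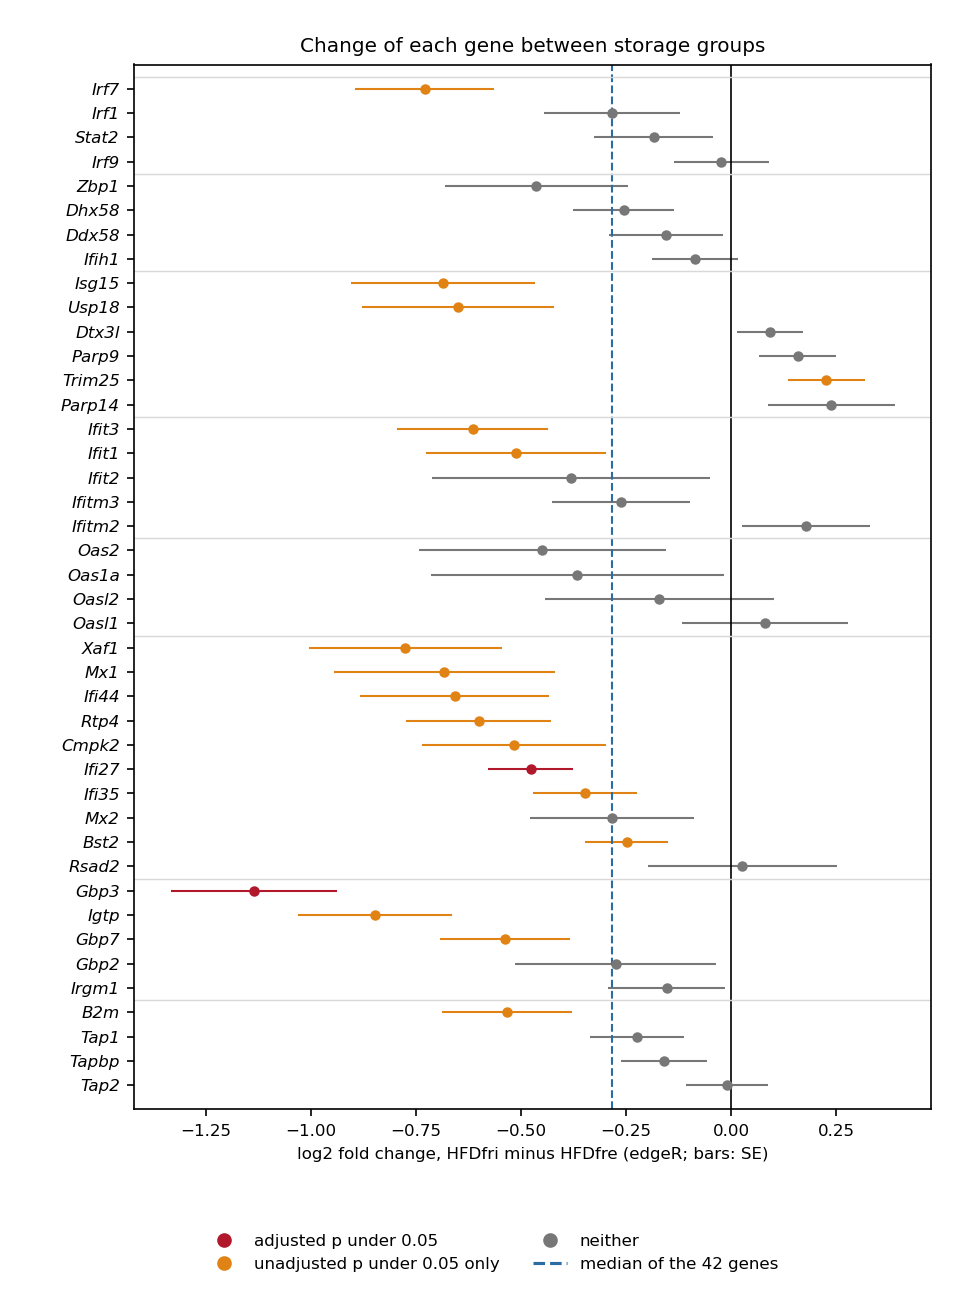
Log2 fold change of each of the 42 genes (x axis, HFDfri minus HFDfre, edgeR) with its SE as a bar, grouped by role from the transcription factors at the top to antigen processing at the bottom. Red points passed the adjusted threshold (Gbp3 and Ifi27), orange points only an unadjusted p under 0.05, and the dashed line is the median of the list at -0.28.

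The libraries held between 58614917 and 69353439 counts. Levels are given as CPM (counts per 1000000), which is 1000000 times the share of a gene in the library total after TMM scaling, and the values of a group follow the order of its replicate numbers. A ribosomal RNA-like locus, Gm26924, took 1.20% to 11.1% of the counts in HFDfre and 0.466% to 5.21% in HFDfri. Mitochondrial genes took 11.4% to 19.8% and 8.93% to 13.6%. The 8 hepatocyte markers found in the table summed to between 79097 and 108022 CPM in every library. The part of these shares in the results was not tested, other than by the fits with the Gm26924 share given at the end.

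The genes sat at very different levels. Per kilobase of exon, the mean in HFDfre ran from 0.631 CPM for Ifi44 to 2856 CPM for B2m. After B2m came Ifitm3 at 472, Ifitm2 at 152, Bst2 at 125 and Ifi27 at 53.4 CPM per kilobase. B2m alone held between 56.6% and 66.1% of the summed CPM of the members, so no sum over the list is used below. Members such as Mx1, Oasl2, Ifit2 and Oas2 stayed under 1 CPM per kilobase in both groups.

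The guanylate-binding proteins (GBPs) and immunity-related GTPases (IRGs) are large GTPases that coat and disrupt the vacuoles of intracellular pathogens. All 5 members were lower in HFDfri, with a median log2FC of -0.54. Of these, 3 had an unadjusted p under 0.05, against 9.79% of all tested genes lower at that threshold. Gbp3 (ENSMUSG00000028268, chromosome 3, 142560026 to 142573209, plus strand, GRCm38) had 8.26, 10.5, 12.8, 7.499 and 8.299 CPM in HFDfre. In HFDfri it had 4.01, 5.85, 3.65 and 3.72 CPM. Every HFDfri library was below every HFDfre library. The means of 9.48 ± 2.18 (SD, n = 5) and 4.31 ± 1.04 (SD, n = 4) gave a log2FC of -1.14 ± 0.20 (SE) with an edgeR adjusted p of 0.0322. The adjusted p of Gbp3 was 0.0531, 0.0509, 0.0888 and 0.0705 in edgeR fits that left out HFDfre 1, 2, 3 and 5, respectively. Leaving out HFDfri 3 gave 0.0953 and leaving out HFDfri 4 gave 0.0699. Igtp, also called Irgm3 and needed for the placing of other GTPases on vacuoles, lies on chromosome 11 (58199556 to 58207591, plus strand). It had 43.7, 38.1, 74.1, 42.1 and 51.2 CPM in HFDfre against 33.7, 26.2, 24.6 and 26.2 CPM in HFDfri. The groups did not overlap here either, and HFDfre 3 stood well above the other libraries. The log2FC of Igtp was -0.85 ± 0.18, and its adjusted p of 0.0503 in edgeR was just above 0.05. Gbp7, a neighbour of Gbp3 on chromosome 3 (142530342 to 142550149), had 15.2, 16.4, 21.2, 11.9 and 17.9 CPM in HFDfre and 11.3, 12.97, 11.5 and 9.79 CPM in HFDfri. Only HFDfri 2 was above the lowest HFDfre library, with a log2FC of -0.54 ± 0.15 (edgeR adjusted p = 0.0981). Gbp2 and Irgm1 varied within the groups more than between them. Gbp2 had 3.39, 3.66, 4.41, 2.72 and 4.37 CPM in HFDfre and 1.83, 3.79, 2.61 and 4.03 CPM in HFDfri (log2FC -0.27 ± 0.24). Irgm1, a regulator of the other IRG proteins and of autophagy, had 46.8, 49.1, 70.6, 42.3 and 55.3 CPM in HFDfre and 54.04, 45.7, 43.6 and 46.8 CPM in HFDfri (log2FC -0.15 ± 0.14). Members of these families share sequence. Of the 50-base words in the transcripts of Gbp3, 3.75% also occur in another gene (Gbp7), as do 12.7% for Gbp7 and 11.8% for Igtp, which overlaps Irgm2 on the same strand, so how reads were split between such genes is uncertain.

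A mixed group of antiviral effectors showed the most members past an unadjusted p of 0.05. These were 8 of 10, all lower in HFDfri, against 9.79% of all tested genes. The median log2FC over the 10 was -0.50. Ifi27 (ENSMUSG00000064215, chromosome 12, 103434211 to 103440239, plus strand) encodes a small membrane protein and is a widely used readout of interferon activity. Its CPM were 77.1, 86.5, 78.8, 74.8 and 74.3 in HFDfre and 62.2, 53.7, 46.8 and 62.4 in HFDfri. The groups were well apart, and the spread within HFDfre was narrow. The means of 78.3 ± 4.91 (SD, n = 5) and 56.3 ± 7.50 (SD, n = 4) gave a log2FC of -0.48 ± 0.10 and an edgeR adjusted p of 0.0496. Among the fits that each left out 1 library, Ifi27 passed the adjusted threshold of edgeR only without HFDfri 1 (adjusted p = 0.0214). In the other 8 its adjusted p ran from 0.0640 without HFDfre 4 to 0.136 without HFDfri 3.

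Ifi44, a cytoplasmic protein induced by interferon, was the other gene of this group without overlap. It had 3.35, 3.72, 4.89, 3.83 and 3.54 CPM in HFDfre and 2.39, 3.06, 1.43 and 2.95 CPM in HFDfri (log2FC -0.66 ± 0.22, edgeR adjusted p = 0.133). Rtp4, a chaperone of membrane receptors, had 22.5, 24.9, 25.2, 15.98 and 22.1 CPM in HFDfre and 15.4, 15.1, 10.03 and 17.8 CPM in HFDfri (log2FC -0.60 ± 0.17). The low value of HFDfre 4 lay within the range of HFDfri, and the edgeR adjusted p was 0.0981. Xaf1, which promotes apoptosis, had 11.1, 10.1, 14.7, 6.14 and 10.3 CPM in HFDfre and 8.01, 5.54, 4.51 and 6.38 CPM in HFDfri (log2FC -0.78 ± 0.23, edgeR adjusted p = 0.105). Again HFDfre 4 was the only freezer library inside the HFDfri range.

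Mx1, a GTPase whose protein is defective in most inbred laboratory strains, was scarce. It had 1.68, 3.58, 2.52, 1.67 and 3.08 CPM in HFDfre and 1.74, 1.33, 1.36 and 1.83 CPM in HFDfri (log2FC -0.68 ± 0.26, edgeR adjusted p = 0.171). HFDfre 2, HFDfre 3 and HFDfre 5 were above all HFDfri libraries, and the other two HFDfre libraries lay among them. Bst2, or tetherin, which holds budding virions on the cell surface, had 118, 101, 113, 121 and 111 CPM in HFDfre and 105, 87.2, 82.9 and 105 CPM in HFDfri (log2FC -0.25 ± 0.10, edgeR adjusted p = 0.185). Ifi35 had 35.4, 34.6, 43.00, 31.7 and 40.8 CPM in HFDfre and 35.2, 24.3, 28.5 and 28.8 CPM in HFDfri (log2FC -0.35 ± 0.12, edgeR adjusted p = 0.149). HFDfri 1 was inside the range of HFDfre for Ifi35, and both HFDfri 1 and HFDfri 4 were for Bst2.

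Cmpk2 and Rsad2 are neighbours on chromosome 12 that point away from each other, and their values differed. Cmpk2 (26469204 to 26479837, plus strand), a mitochondrial nucleotide kinase, had 5.28, 5.19, 8.75, 5.25 and 7.75 CPM in HFDfre and 3.29, 4.41, 4.19 and 6.12 CPM in HFDfri (log2FC -0.52 ± 0.22, edgeR adjusted p = 0.207). Rsad2 (26442746 to 26456452, minus strand) encodes viperin, a radical SAM enzyme that makes a chain-terminating nucleotide. It had 4.29, 6.06, 6.93, 6.53 and 7.08 CPM in HFDfre and 3.704, 5.64, 7.68 and 8.16 CPM in HFDfri. The HFDfri libraries held both the highest and the lowest value of Rsad2, and its log2FC of 0.03 ± 0.22 changed sign in 6 of 20 alternative fits. The difference between the neighbours was not tested. Mx2, the last of the group, had a log2FC of -0.28 ± 0.20.

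**Figure D2:**
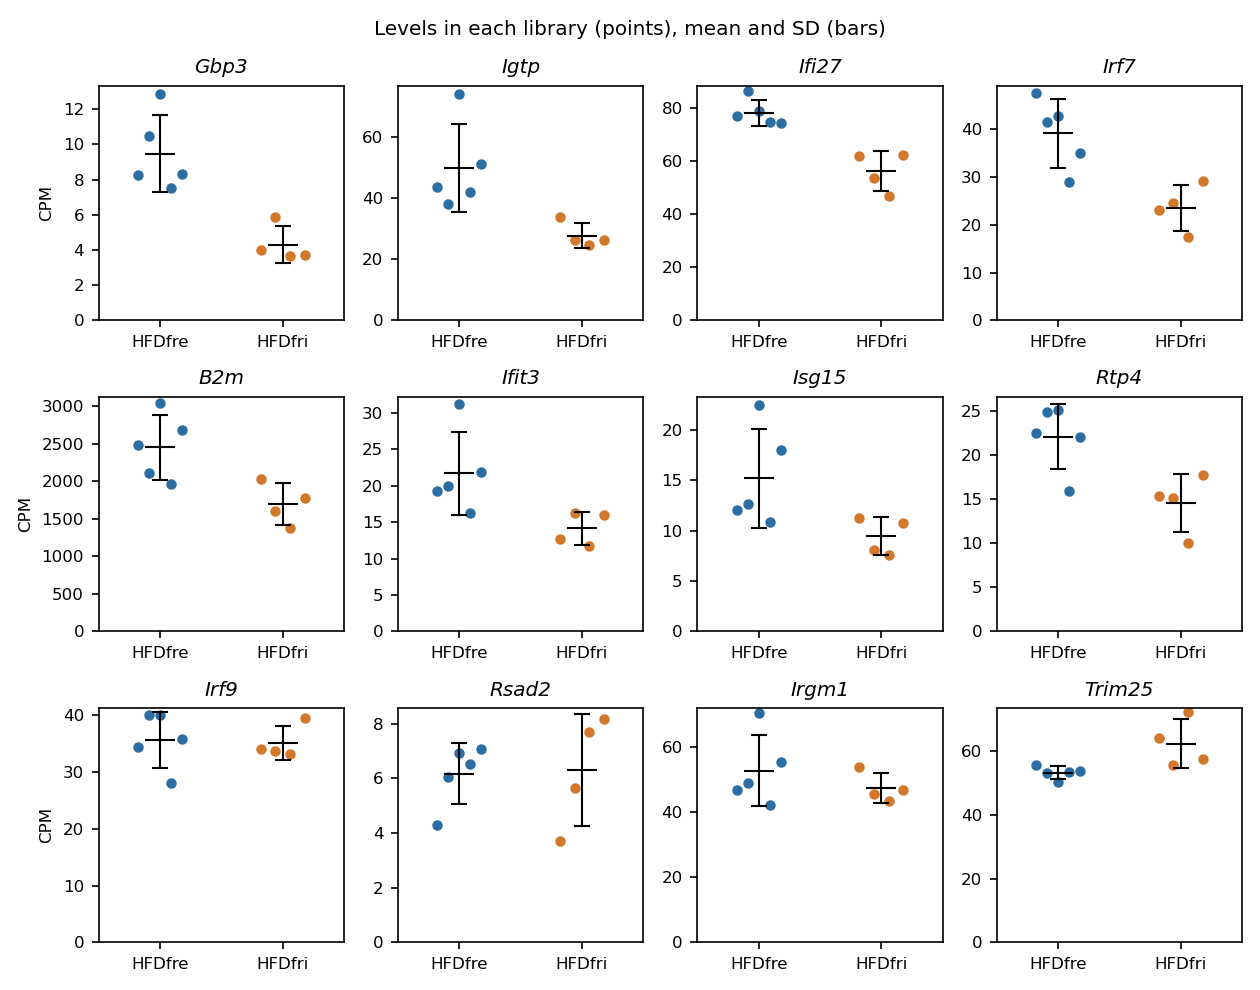
CPM (y axis, from 0) in each library for 12 of the genes, with HFDfre in blue (n = 5) and HFDfri in orange (n = 4); black bars give the mean and SD. The groups are apart for Gbp3, Igtp and Ifi27, just apart for Ifit3 and nearly so for Irf7. Irf9, Rsad2 and Irgm1 overlap widely, and Trim25 is higher in HFDfri.

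Among the transcription factors, all 4 members were lower in HFDfri (median log2FC -0.23), but only Irf7 stood out. Irf7 (chromosome 7, 141262706 to 141266481, minus strand) is itself induced by interferon and drives further interferon transcription. It had 47.6, 41.6, 42.8, 28.9 and 34.99 CPM in HFDfre and 23.2, 24.5, 17.5 and 29.2 CPM in HFDfri. HFDfri 4 was marginally above HFDfre 4 and all other HFDfri libraries were below all of HFDfre. The means were 39.2 ± 7.28 and 23.6 ± 4.78, with a log2FC of -0.73 ± 0.17 and an edgeR adjusted p of 0.0566. Irf7 overlaps Phrf1 on the opposite strand, and the use of strand in counting is not stated, so some of its counts could belong to that gene. Stat2 and Irf9, partners in the ISRE-binding complex, showed small differences. Stat2 had 63.2, 62.1, 68.6, 46.6 and 62.4 CPM in HFDfre and 65.2, 42.8, 46.9 and 58.5 CPM in HFDfri (log2FC -0.18 ± 0.14). Irf9 had 34.3, 40.02, 40.04, 27.97 and 35.9 CPM in HFDfre and 34.1, 33.6, 33.1 and 39.5 CPM in HFDfri (log2FC -0.02 ± 0.11), and its sign changed in 4 of 20 alternative fits. Irf1, which is induced most strongly by interferon gamma, had 27.7, 24.9, 25.2, 16.4 and 20.9 CPM in HFDfre and 22.4, 17.6, 14.9 and 20.8 CPM in HFDfri (log2FC -0.28 ± 0.16).

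The cytoplasmic sensors of foreign nucleic acid were lower by small amounts, and none had an unadjusted p under 0.05. Ddx58, which encodes RIG-I, had 16.8, 21.2, 20.6, 16.4 and 17.4 CPM in HFDfre and 14.1, 21.2, 14.8 and 16.2 CPM in HFDfri (log2FC -0.16 ± 0.14). For Ifih1, or MDA5, the log2FC was -0.09 ± 0.10, and for Dhx58, or LGP2, it was -0.26 ± 0.12. Zbp1, a sensor of left-handed nucleic acid that can trigger necroptosis, had the largest difference of the 4, with -0.46 ± 0.22. Its levels ran from 5.83 to 9.61 CPM in HFDfre and from 3.67 to 7.57 CPM in HFDfri, so the groups overlapped.

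The enzymes around ISG15 split. Isg15 (chromosome 4, 156199424 to 156200818, minus strand), a ubiquitin-like modifier that is joined to other proteins, had 12, 12.6, 22.5, 10.9 and 17.9 CPM in HFDfre and 11.3, 8.103, 7.602 and 10.8 CPM in HFDfri. Its HFDfre values spread widely, with HFDfre 3 and HFDfre 5 the highest, and HFDfri 1 was above HFDfre 4. The log2FC was -0.69 ± 0.22 with an edgeR adjusted p of 0.117. Usp18, which removes ISG15 and also restrains the interferon receptor, had 10.4, 13.6, 17.3, 13.1 and 11.3 CPM in HFDfre and 5.36, 10.95, 6.204 and 10.97 CPM in HFDfri (log2FC -0.65 ± 0.23, edgeR adjusted p = 0.147). The other 4 genes of the group had log2FCs above 0. Trim25, a ubiquitin ligase that acts on RIG-I, had 55.9, 53.3, 50.2, 53.4 and 53.9 CPM in HFDfre and 64.1, 55.6, 72.5 and 57.5 CPM in HFDfri. Only HFDfri 2 was below the highest HFDfre library (log2FC 0.23 ± 0.09, edgeR adjusted p = 0.188). Parp14 and Parp9, which are ADP-ribosyltransferases, had log2FCs of 0.24 ± 0.15 and 0.16 ± 0.09. Dtx3l, the ubiquitin ligase that pairs with PARP9, had 0.09 ± 0.08. Parp9 and Dtx3l overlap on opposite strands, and 7.71% of the 50-base words of Parp9 also occur in Dtx3l.

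IFIT proteins bind viral RNA, and IFITM proteins block the fusion of virus with the cell. Of these 5 members 4 were lower in HFDfri. An unadjusted p under 0.05 was reached by 2 of them, against 9.79% of all tested genes lower at it. Ifit3 had 19.2, 19.9, 31.2, 16.2 and 21.9 CPM in HFDfre and 12.7, 16.2, 11.8 and 15.98 CPM in HFDfri, with HFDfri 2 just below HFDfre 4. Its log2FC was -0.62 ± 0.18 (edgeR adjusted p = 0.101), but 51.2% of its 50-base words also occur in Ifit3b, so the value may belong to both genes. Ifit1 had 9.97, 13.2, 20.2, 12.2 and 15.8 CPM in HFDfre and 7.53, 10.3, 8.57 and 13.6 CPM in HFDfri (log2FC -0.51 ± 0.21, edgeR adjusted p = 0.202). Ifit2 ran from 1.83 to 3.92 CPM in HFDfre and from 1.16 to 3.46 CPM in HFDfri, so the groups overlapped (log2FC -0.38 ± 0.33). Ifitm3 had 355, 313, 341, 259 and 334 CPM in HFDfre and 363, 228, 199 and 279 CPM in HFDfri. Its highest value was in HFDfri 1 and its lowest in HFDfri 3 (log2FC -0.26 ± 0.16). Ifitm2, of which 48.5% of the 50-base words occur in other genes, had 0.18 ± 0.15.

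OAS proteins make the 2′-5′ oligoadenylate that activates RNase L. None of the 4 members had an unadjusted p under 0.05. Oas1a had 3.47, 4.002, 4.07, 2.57 and 2.45 CPM in HFDfre and 2.83, 2.77, 0.828 and 3.87 CPM in HFDfri. HFDfri 3 stood far below the other libraries, which overlapped (log2FC -0.37 ± 0.35). Oas1a shares 57.6% of its 50-base words with Oas1g, so this level is uncertain. The log2FCs of Oas2, Oasl2 and Oasl1 were -0.45 ± 0.29, -0.17 ± 0.27 and 0.08 ± 0.20.

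Antigen processing loads peptides onto MHC class I molecules for display to T cells. B2m (chromosome 2, 122147686 to 122153083, plus strand), the light chain of these molecules and the most abundant of the 42 genes, had 2482, 2115, 3041, 1966 and 2679 CPM in HFDfre and 2035, 1606, 1375 and 1775 CPM in HFDfri. HFDfri 1 was above HFDfre 4, and the other HFDfri libraries were below all of HFDfre. The means of 2457 ± 433 and 1698 ± 278 gave a log2FC of -0.53 ± 0.15 (edgeR adjusted p = 0.101). B2m overlaps Patl2 on the opposite strand. Tap1, a subunit of the peptide transporter, had 26.8, 27.7, 33.5, 27.6 and 25.6 CPM in HFDfre and 24.4, 24.03, 20.4 and 27.9 CPM in HFDfri (log2FC -0.22 ± 0.11). Tapbp, or tapasin, which joins the transporter to the MHC molecule, had -0.16 ± 0.10. Tap2, the other transporter subunit, had -0.01 ± 0.10, with levels of 18.3 to 19.5 CPM in HFDfre and 15.8 to 21.1 CPM in HFDfri.

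Single libraries weighed on the list. HFDfre 3 was the highest of the 9 libraries for 25 of the 42 members, against 11.03% of all tested genes. HFDfri 3 was the lowest for 20 members, against 14.2% of all tested genes, and HFDfri 1 for 9 members, against 17.3%. The deviation of log2 CPM from the mean of the 9 libraries had a median over the members of 0.037, 0.159, 0.393, -0.096 and 0.138 in HFDfre, and of -0.110, -0.126, -0.377 and 0.013 in HFDfri. HFDfre 4 therefore sat among the HFDfri libraries, and HFDfri 4 above it. Over all tested genes the same medians stayed between -0.0018 and 0.0222. Without HFDfre 3 the median log2FC of the members was -0.25, with 34 lower, and without HFDfri 3 it was -0.20, also with 34 lower. Without HFDfre 4 it was -0.39.

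**Figure D3:**
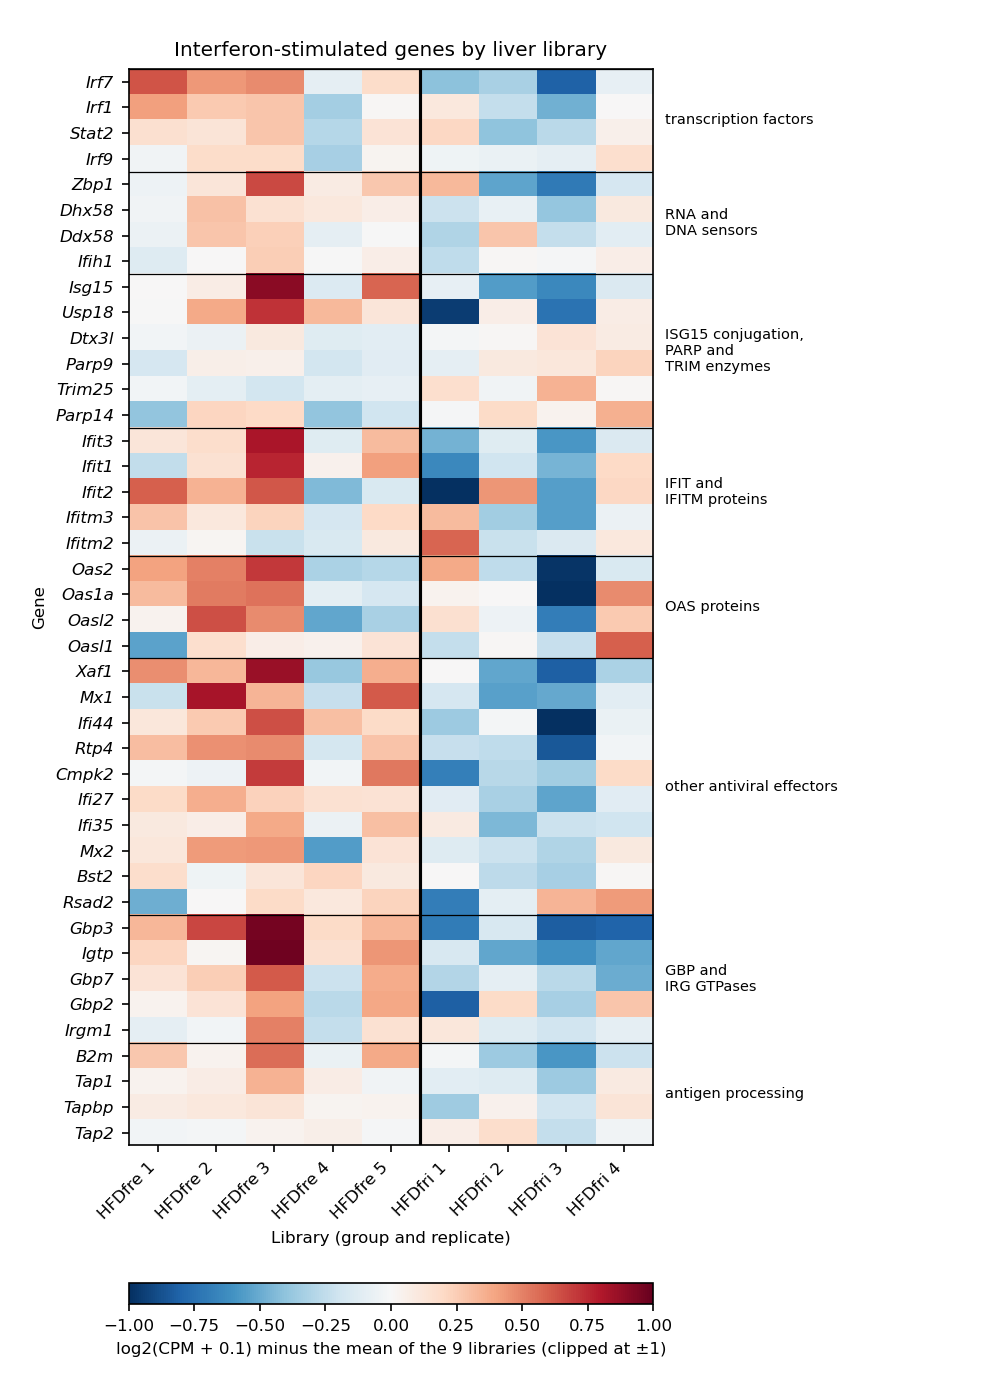
Heat map of log2(CPM + 0.1) minus the mean of the 9 libraries for the 42 genes (y axis, grouped by role) in each library (x axis, HFDfre left and HFDfri right of the black line), with the colour scale held at ±1. HFDfre 3 is the reddest column, HFDfri 3 the bluest, and HFDfre 4 is blue for Irf1, Stat2, Oas2 and Oasl2.

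Further genes of the interferon pathway were listed by their place in it, without members of the 42. Of the 153 listed, 150 were matched in the table and 134 were tested. Of those, 96 were lower, against 50.9% of all tested genes, and 38 higher in HFDfri, with a median log2FC of -0.22. Adjusted p passed 0.05 for 3 lower genes and 1 higher gene, against 0.556% and 0.499% of all tested genes. At an unadjusted p under 0.05, 40 were lower and 11 higher, against 9.79% and 11.4% of all tested genes. The groups did not overlap for 15 lower and 3 higher genes, against 3.66% and 4.02%.

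The interferon genes themselves were hardly counted. Of 9 interferon genes, 7 (Ifnb1, Ifna1, Ifna2, Ifna4, Ifne, Ifnl2 and Ifnl3) had a count of 0 in all libraries. A count of 0 allows up to 3 counts, or between 0.0407 and 0.0578 CPM depending on the library. Ifng had at most 12 counts in a library and Ifnk at most 7. Of the 13 tested genes for receptors, kinases and their regulators, 6 were lower and 7 higher, with a median log2FC of 0.04. Jak1, the kinase shared by the receptors for interferon alpha, beta and gamma, rose. It had 50.6, 52.5, 48.03, 46.5 and 52.6 CPM in HFDfre and 66.7, 60.9, 67.3 and 62.7 CPM in HFDfri, with no overlap (log2FC 0.36 ± 0.08, edgeR adjusted p = 0.0496). Jak1 passed in 7 of 20 alternatives, and with 1 library left out only without HFDfri 1 or HFDfri 2; in the other 7 such fits its edgeR adjusted p ran from 0.0749 to 0.146. Ifnar2, a chain of the receptor for interferon alpha and beta, had a log2FC of -0.42 (edgeR adjusted p = 0.105). The other interferon regulatory factors and cofactors were 5 lower and 5 higher. The 21 genes of the sensing pathway were 12 lower and 9 higher, with 2 lower and 4 higher at an unadjusted p under 0.05, against 9.79% and 11.4% of all tested genes.

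At the target end the differences were mostly downward. Of 62 other antiviral and interferon-induced genes 49 were lower (median log2FC -0.33), against 50.9% of all tested genes. Of these 62, 20 were lower at an unadjusted p under 0.05 and 2 higher, against 9.79% and 11.4% of all tested genes. Cxcl10, a chemokine that draws T cells, fell. It had 4.37, 3.78, 5.84, 4.16 and 4.58 CPM in HFDfre and 2.19, 1.98, 2.74 and 2.93 CPM in HFDfri, with no overlap (log2FC -0.89 ± 0.18, edgeR adjusted p = 0.0464). Apol9b, an apolipoprotein L family member, also fell, from 162 ± 30.3 CPM to 94.97 ± 17.8 CPM (log2FC -0.77 ± 0.16, edgeR adjusted p = 0.0493). Its near copy Apol9a had a log2FC of -0.82 ± 0.20 (edgeR adjusted p = 0.0664), and reads of the pair may not be separable. Phf11d had -1.18 ± 0.27 (edgeR adjusted p = 0.0566). Among 13 other GBP and IRG genes, 11 were lower, and the median of the list was -0.69. Of the lower genes, 7 had an unadjusted p under 0.05, against 9.79% of all tested genes. The 2 that were not lower were Iigp1 and Ifi47. Iigp1, with the highest mean CPM of the 13, had 405 ± 65.2 CPM in HFDfre and 428 ± 133 CPM in HFDfri (log2FC 0.08 ± 0.18). The log2FC of Ifi47 was 0.28 ± 0.20. Gbp6 had 15.5, 16.4, 26.02, 12.9 and 15.8 CPM in HFDfre and 9.05, 11.6, 7.36 and 10.02 CPM in HFDfri (log2FC -0.87 ± 0.20, edgeR adjusted p = 0.0589). Gbp4 had a log2FC of -1.04 ± 0.26 (edgeR adjusted p = 0.0701). Among 15 other antigen processing genes, 13 were lower with a median of -0.29. Of them, 8 had an unadjusted p under 0.05, against 9.79% of all tested genes. H2-Q4, a nonclassical MHC class I gene, fell from 35.2 ± 3.95 CPM to 24.7 ± 1.26 CPM, with no overlap (log2FC -0.51 ± 0.10, edgeR adjusted p = 0.0358). The classical genes H2-K1 and H2-D1 had -0.32 and -0.34 (edgeR adjusted p = 0.112 and 0.101), each with no overlap. Over all tested genes, 3.66% were lower with no overlap. The calls of Cxcl10, Apol9b and H2-Q4 passed in 7, 7 and 8 of 20 alternatives. With 1 library left out, Cxcl10 and H2-Q4 passed only without HFDfri 1, and Apol9b only without HFDfri 1 or HFDfre 4. In the other such fits the edgeR adjusted p ran from 0.0531 to 0.118 for Cxcl10, from 0.0653 to 0.136 for Apol9b and from 0.0501 to 0.102 for H2-Q4. MHC class I genes are close copies, so the split of reads among them is uncertain.

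**Figure D4:**
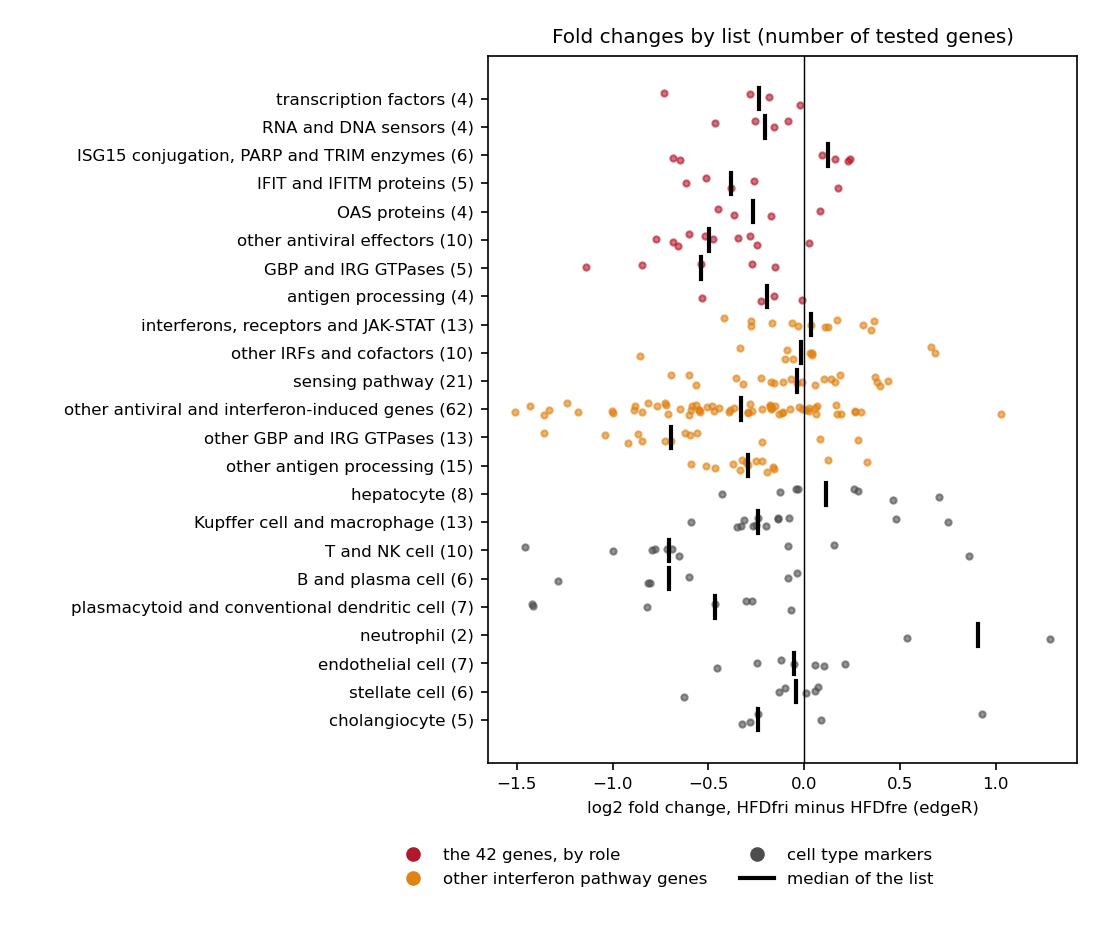
Log2 fold changes (x axis, HFDfri minus HFDfre, edgeR) of single genes in each list (y axis, number of tested genes in brackets), with the median of each list as a black line. The 42 genes by role are red, other interferon pathway genes orange and cell type markers grey; the median is -0.54 for the GBP and IRG members, -0.69 for the other GBP and IRG genes, and near 0 for receptors and sensing.

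Whole liver was sequenced, so fewer cells of a type and less RNA per cell cannot be told apart. Interferon-stimulated genes are expressed in hepatocytes and in immune cells, and marker lists were therefore read in the same fit. Over all tested genes, 50.9% had a log2FC under 0. At an unadjusted p under 0.05, 9.79% were lower and 11.4% higher. Of 13 Kupffer cell and macrophage markers 11 were lower (median log2FC -0.24), none at an unadjusted p under 0.05. Their summed level ran from 118 to 238 CPM in HFDfre and from 130 to 186 CPM in HFDfri, and all of the 13 had counts in every library. Of 10 tested T and NK cell markers 8 were lower (median -0.70), 0 of them at an unadjusted p under 0.05, while 1 was higher at that threshold (log2FC 0.86), with summed levels of 2.94 to 6.04 CPM and 3.24 to 4.69 CPM. Of these, Cd3e, Klrb1c and Gzmb were at 0 in 1 library each, and Cd8a, Cd2 and Gzma in 2. All 6 B and plasma cell markers were lower (median -0.70, 1 at an unadjusted p under 0.05, summed levels 2.56 to 4.16 CPM and 1.75 to 2.35 CPM, without overlap). All 7 dendritic cell markers were lower (median -0.47, 1 at an unadjusted p under 0.05, summed levels 3.44 to 5.74 CPM and 2.10 to 3.61 CPM), with Ccr9 at 0 in 1 library and Flt3 and Cd209a in 2 each. Of the neutrophil markers only S100a8 and S100a9 were tested, with log2FCs of 1.28 and 0.54 and neither at an unadjusted p under 0.05, and Mpo was at 0 in all 9 libraries. The 8 hepatocyte markers were 4 lower and 4 higher. Of them, 1 was lower and 4 were higher at an unadjusted p under 0.05, against the same 9.79% and 11.4%. The median deviation of the hepatocyte markers by library ran from -0.141 to -0.016 in HFDfre. In HFDfri it ran from 0.032 to 0.144, so the groups did not overlap. By library, the median deviation of the Kupffer cell markers had the sign of that of the 42 genes in 8 of 9 libraries, such as 0.38 in HFDfre 3 and -0.33 in HFDfri 3. The exception was HFDfre 5, at -0.51 for the markers and 0.138 for the 42 genes. This match was not particular to Kupffer cells. The T and NK cell markers had the sign of the 42 genes in every library. The stellate cell markers had it in every library but HFDfre 5 (-0.215). In the other marker lists the sign differed in more libraries. The T and NK cell markers were highest in HFDfre 3 (1.08), and the T and NK cell, B and plasma cell and dendritic cell markers were lowest in HFDfri 3 (-0.69, -0.70 and -0.48), the libraries in which the 42 genes were also highest and lowest. Of 7 endothelial cell markers 4 were lower and 3 higher (median log2FC -0.05, 1 lower at an unadjusted p under 0.05). Of 6 stellate cell markers 3 were lower and 3 higher (median -0.04, 1 lower at that threshold). Of 5 markers of bile duct cells (cholangiocytes) 3 were lower and 2 higher (median -0.24, 1 higher at that threshold). The part of these cell types in the result was not tested.

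**Figure D5:**
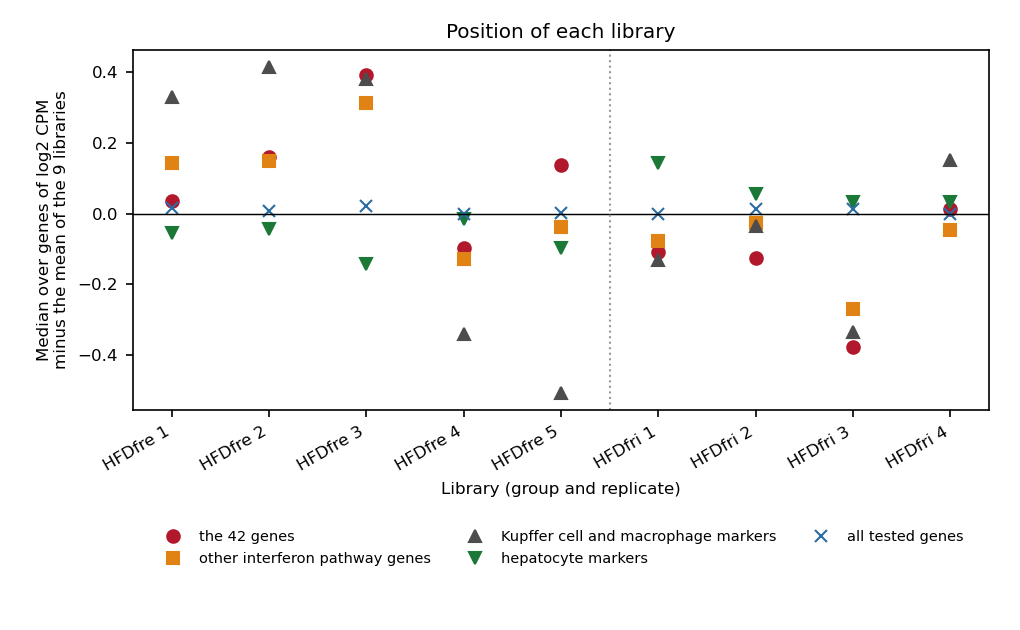
Median over the genes of each list of log2 CPM minus the mean of the 9 libraries (y axis) for each library (x axis; HFDfre left and HFDfri right of the dotted line). The 42 genes run from 0.393 in HFDfre 3 to -0.377 in HFDfri 3, the Kupffer cell and macrophage markers from 0.42 in HFDfre 2 to -0.51 in HFDfre 5, and all tested genes stay near 0.

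With the Gm26924 share as a covariate, 37 members were lower, with a median log2FC of -0.35, and Gbp3 and Igtp passed the adjusted threshold of edgeR. In the 2 HFDfre and 3 HFDfri libraries with a share under 3%, 35 members were lower, with a median of -0.29. Of these, 16 had an unadjusted p under 0.05, against 4.87% of all genes fitted, and 0 passed the adjusted threshold. Over all 20 alternative fits the number of lower members ranged from 33 to 37, against 43.7% to 53.4% of all genes fitted. The number lower at an unadjusted p under 0.05 ranged from 13 to 20, against 4.87% to 12.9% of all genes fitted. The number past the adjusted threshold ranged from 0 to 10, while 0 to 1106 genes passed in all. DESeq2 gave the 10: Irf7, Isg15, Ifit3, Rtp4, Xaf1, Ifi27, Gbp3, Gbp7, Igtp and B2m, of 1033 genes it called among 14220.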

How the data were processed

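Total RNA from liver was sequenced as paired-end Illumina reads, which the authors aligned and quantified with HISAT2. The submitters' processing notes also name StringTie and mm10; versions, annotation and use of strand are not given in the sources used here. The library kit differs between the labels (NEBNext Ultra) and the study's methods (KAPA RNA HyperPrep), and which applies was not settled. The authors deposited estimated counts per gene, whole numbers not scaled between libraries. Values of 4 occurred 3990 times, against 2172 for 3 and 1840 for 5, so a count may not be 1 read pair. The floors given for genes without counts cover counting error only. The SDs and SEs include the spread between libraries.

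Genes kept by filterByExpr (14220) were compared as HFDfri minus HFDfre by quasi-likelihood F-test in edgeR 4.0.16 (R 4.3.3), after TMM and Benjamini-Hochberg adjustment over all tested genes. The SE is the log2 fold change divided by the square root of F. A prior count of 2 entered log2 CPM. The study used DESeq2, run here as an alternative (1.42.0), beside limma-voom (3.58.1) and other scalings, filters, a replicate block and leaving out each library. The alternatives with the Gm26924 share were added after seeing the data. Coordinates, exon lengths and 50-base words came from GENCODE M21 (GRCm38), which holds 96.3% of the table's identifiers, and promoters from RefSeq. Of the 153 other pathway genes, 3 were matched by identifier and Oas1b, Cxcl11 and Ifgga1 were not matched, nor was the hepatocyte marker Tf. The scripts were tested on simulated data.

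The members and all lists were chosen with earlier results of these data known. Values by library are given for members with an unadjusted p under 0.05 and for 19 members picked by role. The other pathway genes described were those past the adjusted threshold and the 8 with the smallest p. These 8 were taken from genes at an unadjusted p under 0.05. Ifnar2, H2-K1, H2-D1, Iigp1 and Ifi47 were named after their values were seen.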

Additional observations from a re-analysis of the deposited data

Results flagged for a closer look

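Among the members described gene by gene, 3 values stood apart from the other libraries of their own group by Dixon's criterion. The log2 CPM of Stat2 in HFDfre 4 was 5.54, against 5.96 to 6.10 in the other HFDfre libraries, a gap of 0.741 of the group's range. For Rtp4 in HFDfre 4 it was 4.00, against 4.47 to 4.65, a gap of 0.714. For Tap1 in HFDfre 3 it was 5.07, against 4.68 to 4.79, a gap of 0.711. The 76 sets of 4 or 5 values examined covered both groups for the 28 members, 9 other pathway genes and the mean over the members, and about 1 in 20, or 3.8, would be marked by chance. The causes were not tested.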

How the results depend on the processing

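The number of members with a lower level stayed between 33 and 37 of 42 in all 20 alternatives, and their median log2 fold change between -0.39 and -0.20. Counts past the adjusted threshold moved more. For all genes, members and other interferon pathway genes they were 150, 2 and 4 in the fit reported. They became 1033, 10 and 26 with DESeq2, 76, 1 and 0 with library totals, 72, 1 and 1 with no filter, and 0, 0 and 0 with the replicate block. DESeq2 size factors gave 1 member and 2 other genes, and a minimum of 10 counts in every library or robust dispersion gave 4 members each. With the Gm26924 share as a covariate 38 genes and 0 other pathway genes passed, and in libraries with a share under 3% the counts were 2, 0 and 0; both were chosen after seeing the data. Leaving out 1 library gave 6 (without HFDfre 3 or HFDfre 5) to 1106 genes (without HFDfri 1), 0 to 8 members and 0 to 18 other genes. Scaling by library totals moved the median of all genes from -0.0068 to 0.051, and that of the members to -0.22. The log2 fold change of Irf9 turned to 0.038 with library totals and ran from -0.0996 to 0.016 when 1 library was left out. That of Rsad2 turned to -0.017 with limma-voom, -0.040 with the covariate and -0.27 in libraries under 3%, and ran from -0.12 to 0.20 when 1 library was left out. For these changes the cause was not tested. Same-numbered libraries of the groups had correlations of -0.136 to 0.081 between their deviations from the group means. The replicate numbers come from the sample titles, so these values do not settle whether libraries were paired. Other pairings were not tested. With 5 and 4 libraries, members at low levels such as Mx1 and Oas1a had SEs of 0.26 and 0.35.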
